A study of Mus musculus with 69 samples.

Results

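Oligodendrocyte precursor transcripts were followed through 69 mouse libraries as 10 genes used here as markers of oligodendrocyte precursor cells or cells just leaving that state. These were Pdgfra, Cspg4, Ptprz1, Ncan, Vcan, Cacng4, Olig1, Olig2, Sox10 and Gpr17. They were chosen by gene symbol, and each of the 10 symbols stood on 1 row in each of the 3 count tables, which hold 54532, 54532 and 54429 rows. The study is about TLR7, a receptor of the innate immune system that senses RNA inside endosomes, and its part in loss of myelin. It holds 28 hippocampal libraries of WT mice that received saline or the TLR7 agonist gardiquimod, 24 libraries of primary microglia given DMSO, the solvent control, or myelin, and 17 hippocampal libraries of PSUK+ mice given a control or a TLR7 inhibitor.

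In the agonist experiment the groups were saline males, gardiquimod males, saline females and gardiquimod females, with n = 7 each. The males were 12.12 months and the females 9.6 months old, so that sex and age cannot be told apart. The microglia came from pups of postnatal days 1 to 3, either WT or of the genotype TLR7:-/- (KO below), of either sex, with n = 3 in each of 8 groups. No animal, litter or culture is named for a library, so p-values measure the spread between these samples, which may be technical. In the inhibitor experiment all mice were PSUK+, a genotype that is not explained further in the labels, and the inhibitor is not named. There were 3 male controls, 6 inhibitor males, 3 female controls and 5 inhibitor females aged 5.50, 6.06 or 6.85 months, with 1 age lacking its unit. Male controls were all 5.50 months and inhibitor males 5.50 or 6.06 months. Female controls were 5.50 or 6.85 months, and inhibitor females had all 3 ages. Age was thus not balanced between control and inhibitor. The labels call the RNA nuclear and taken from microglia in every sample, including the samples whose tissue is hippocampus.

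Oligodendrocyte precursors are the dividing glia that make myelin-forming oligodendrocytes, and they persist in the adult hippocampus. Platelet-derived growth factor, read by the receptor that Pdgfra encodes, keeps them dividing, while the transcription factors OLIG1, OLIG2 and SOX10 set and hold the lineage. As a precursor commits, PDGFRA and the proteoglycan encoded by Cspg4 (NG2) are lost, and the receptor GPR17 appears for a short time before myelin genes are switched on. Cultures of primary microglia are grown from mixed glia of newborn brain, so that RNA of precursors can be carried with them.

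Library totals were 14.3 to 23.5 M counts in the agonist, 15.3 to 21.3 M in the microglia and 14.4 to 21.03 M in the inhibitor experiment. Each count is a 3′ tag, with about 1 tag for a transcript, so levels are given as CPM (counts scaled to the library total) without division by length, and they were scaled within an experiment only. The hippocampal libraries carried neuronal RNA, with 10 neuron markers summing to 3653 to 5520 CPM and 3946 to 7698 CPM, against 3.51 to 7.78 CPM in the microglia, while 10 microglia markers summed to 374 to 494, 222 to 415 and 3607 to 5006 CPM. Tlr7 checked the genotype labels, at 167 to 197 CPM in the 12 WT and 1.25 to 2.76 CPM in the 12 KO libraries of microglia. The libraries labelled inhibitor male replicates 1 and 2 held 11.1 and 3.27 CPM of Xist, the RNA of the inactive X chromosome, where the other male libraries of that experiment held at most 0.367 CPM. Mitochondrially encoded genes took 1.18 to 1.94% of counts in microglia, 5.18 to 15.3% in the agonist and 3.31 to 15.7% in the inhibitor libraries.

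All 10 genes are protein coding, and the positions deposited with the counts are those of GENCODE M21 on GRCm38. Pdgfra (ENSMUSG00000029231) lies on chromosome 5 from 75152292 to 75198215 on the plus strand, Cspg4 (ENSMUSG00000032911) on chromosome 9 from 56865033 to 56899870 on the plus strand, and Ncan (ENSMUSG00000002341) on chromosome 8 from 70093085 to 70120873 on the minus strand. Olig2 and Olig1 are neighbours on chromosome 16, both on the plus strand, with 41094 bases between them. Reads of Pdgfra, Vcan, Cacng4 and Olig1 could share positions with noncoding genes on the other strand, and Gpr17 lies inside Lims2, which is read from the other strand. Whether the authors counted by strand is not given in the sources used here.

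Promoter windows from RefSeq (GRCm38.p6, 250 bases before to 50 after the start) were used for 6 of the 10 genes. The chromosome that carries Gpr17 was left out of the search. The stretch from 250 to 51 bases before the start is shown for 3 of them, since Cspg4 moved against Pdgfra and Ncan in the microglia below. Capitals mark a match to CAGCTG, an E-box of the kind that OLIG proteins can bind.
Cspg4, chr9:56864854-56865053, plus strand: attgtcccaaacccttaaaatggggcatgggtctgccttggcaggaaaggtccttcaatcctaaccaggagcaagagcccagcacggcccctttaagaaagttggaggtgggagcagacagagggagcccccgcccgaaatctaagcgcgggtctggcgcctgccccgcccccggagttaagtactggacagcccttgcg
Pdgfra, chr5:75152001-75152200, plus strand: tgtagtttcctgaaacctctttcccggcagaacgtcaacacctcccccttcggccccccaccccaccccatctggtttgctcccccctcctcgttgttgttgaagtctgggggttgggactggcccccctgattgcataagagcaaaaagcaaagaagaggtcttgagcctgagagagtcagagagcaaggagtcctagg
Ncan, chr8:70120895-70121094, minus strand: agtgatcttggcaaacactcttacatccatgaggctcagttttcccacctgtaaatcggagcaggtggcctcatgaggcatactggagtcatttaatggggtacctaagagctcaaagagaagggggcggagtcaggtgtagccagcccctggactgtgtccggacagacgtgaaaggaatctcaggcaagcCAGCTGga
In the full windows on both strands, CAGCTG was present only in Ncan, at 58 bases before the start, and 16.3% of 32851 RefSeq promoters of this length hold it. The SOX core ACAAAG was in none of the 6 windows and in 18.7% of all promoters. These matches describe letters and carry no statement on binding.

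To see how much RNA of these genes each sample held, the 10 genes were summed in every library. Other cells make some of them too, so the sum does not measure precursor RNA alone. They made up 6.94 to 9.88 of every 10000 counts in the agonist hippocampi and 7.43 to 10.5 in the inhibitor hippocampi, but 1.17 to 2.45 in the microglia, where 1892 to 3914 counts a library came from them. The makeup of that sum differed between tissue and culture. Ptprz1 encodes a receptor phosphatase that binds pleiotrophin and is also known in astrocytes. Ncan encodes a chondroitin sulfate proteoglycan that astrocytes and neurons also make. In hippocampus Ptprz1 and Ncan took median shares of 34.7% and 23.2% of the sum in the agonist experiment and 32.8% and 24.6% in the inhibitor experiment. In the microglia Cspg4 had the largest median share, at 44.8%, with a range of 23.5 to 67.5%. Its share was 1.16 to 1.85% in the agonist and 1.07 to 2.97% in the inhibitor experiment. The ranges of the Cspg4 share did not overlap between hippocampus and microglia. In male WT microglia with DMSO, however, Ncan stood above Cspg4, at means of 75.4 and 56.8 CPM.

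**Figure D1:**
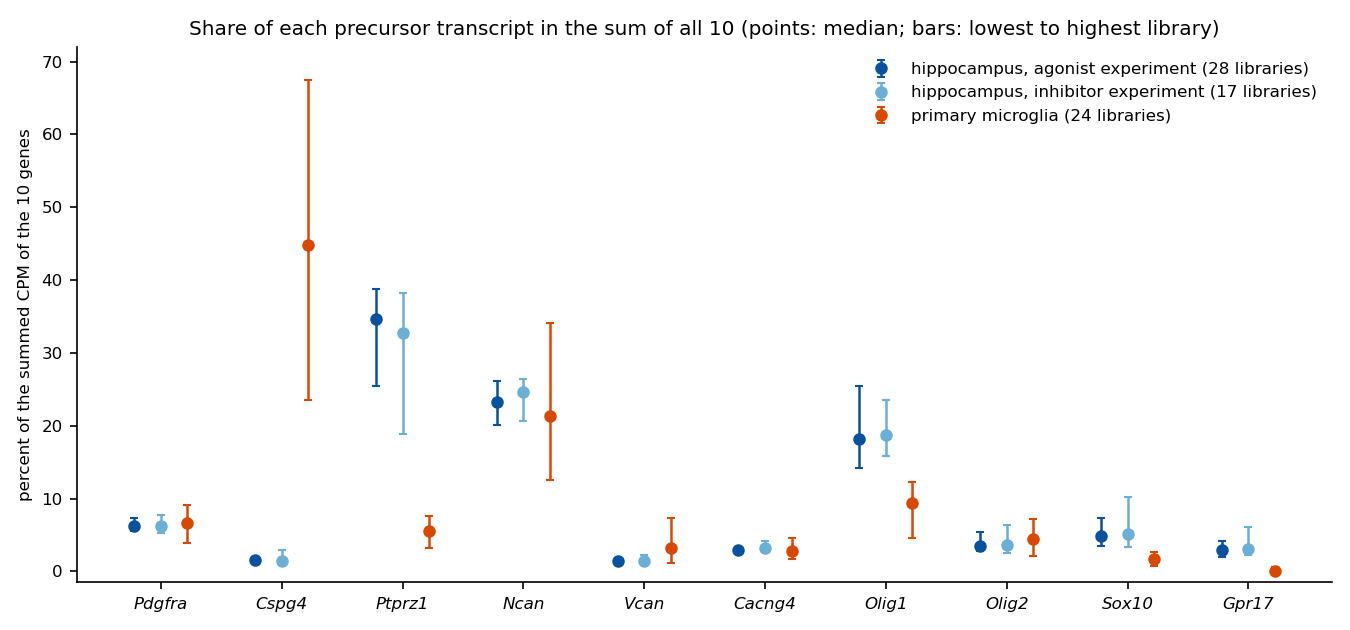
Share of each of the 10 precursor transcripts in their summed CPM (vertical axis, percent), with the median as a point and the lowest to highest library as a bar, for 28 agonist and 17 inhibitor hippocampal libraries and 24 microglia libraries. Cspg4 runs from 23.5 to 67.5% in microglia and stays under 3% in hippocampus, while Ptprz1 and Gpr17 take smaller shares in microglia.

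Relative to Pdgfra within the same library, some genes kept a like ratio and others did not. Ncan stood at a median of 3.75 and 3.80 times Pdgfra in the agonist and inhibitor hippocampi and at 3.19 times in microglia, and Cacng4, an auxiliary subunit of AMPA receptors, at 0.466, 0.528 and 0.440 times. Ptprz1 was at 5.56 and 5.23 times Pdgfra in hippocampus but 0.829 times in microglia, and Sox10 at 0.768 and 0.789 times against 0.269. Gpr17, the transient receptor of committed precursors, was at 0.457 and 0.535 times Pdgfra in hippocampus and at 0.0213 times in microglia. The 3 experiments were scaled and sequenced separately, so these ratios are descriptions and were not tested. A list of 16 oligodendrocyte markers summed to 5262 to 11231 CPM in the agonist and 5777 to 10752 CPM in the inhibitor hippocampi. In the microglia that list summed to 211 to 1013 CPM. The part of oligodendrocytes in the levels of Olig1, Olig2 and Sox10 was not tested.

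Gpr17 was near the limit of detection in microglia. It had 0 to 13 counts in a library and 109 counts over all 24, was at 0 in 3 libraries and at or under 3 counts in 12. A count of 0 still allows up to 3 counts a library. It did not pass the filter on low counts there, so that 9 of the 10 genes were tested in microglia, and no fold change is given for it. These intervals and floors cover counting error only.

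The question of the microglia experiment was how myelin and the loss of TLR7 act on these cells. Precursor transcripts were present in all 8 groups, and all but Cspg4 were highest in male WT cultures with DMSO, Gpr17 aside. Without Cspg4 the genes summed to 172, 175 and 177 CPM in the 3 male WT DMSO libraries and to 119, 133 and 134 CPM in the male WT myelin libraries. The male KO sums were 76.4 to 89.99 CPM with DMSO and 57.2 to 63.7 CPM with myelin. In females the sums were 87.7 to 90.8 CPM in WT DMSO, 62.0 to 64.0 in WT myelin, 101 to 109 in KO DMSO and 48.0 to 71.7 in KO myelin. In these bulk samples, fewer precursor cells, less RNA per cell and a change in RNA of other cells cannot be told apart.

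**Figure D2:**
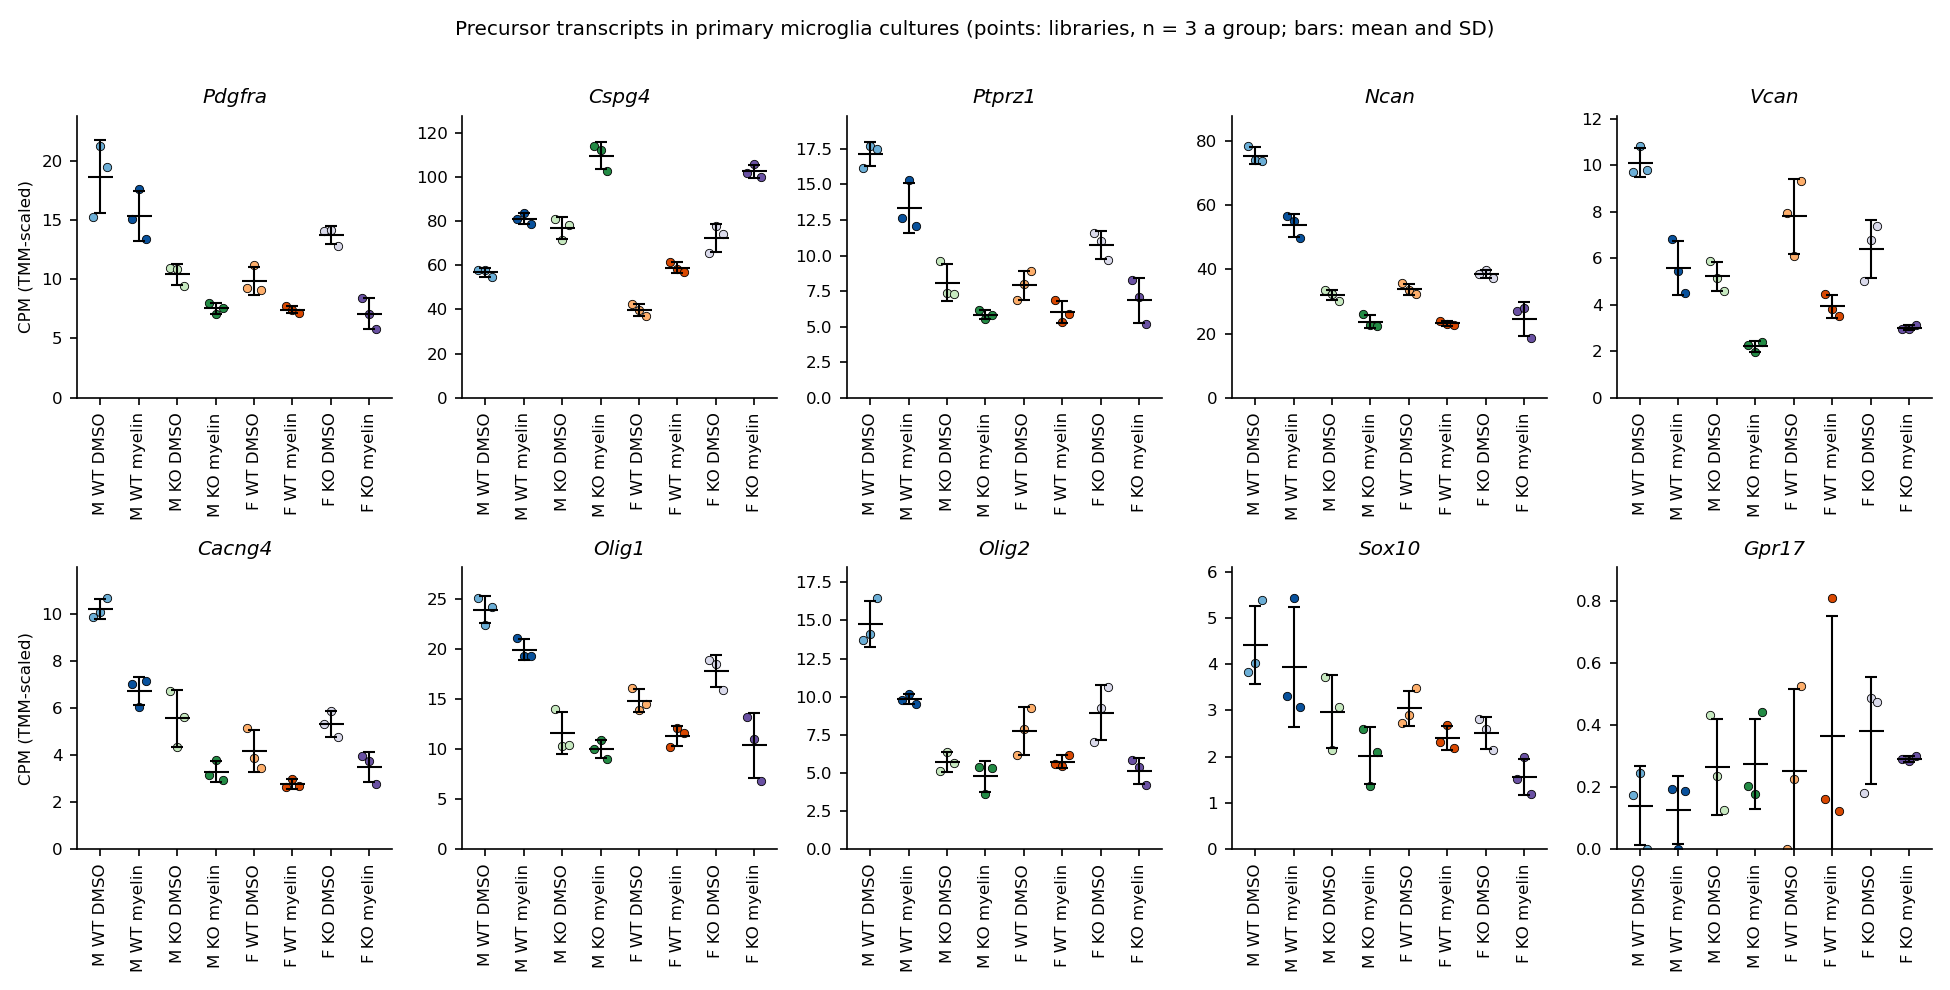
Level of each precursor transcript (vertical axes, CPM with TMM scaling) in the 24 microglia libraries, by sex, genotype and treatment, with n = 3 points a group and bars for the mean and SD. Cspg4 is higher with myelin and in KO cultures, while the other tested genes are highest in male WT cultures with DMSO.

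Pdgfra encodes the growth factor receptor that marks the precursor, but like Vcan it is also known in fibroblasts, whose markers are given below. Pdgfra was at 15.2, 21.2 and 19.4 CPM in male WT DMSO and at 15.1, 17.6 and 13.4 CPM in male WT myelin. It was at 10.96, 10.9 and 9.40 CPM in male KO DMSO and 7.99, 7.08 and 7.57 CPM in male KO myelin. In females it was at 9.21, 11.2 and 9.07 CPM in WT DMSO, 7.74, 7.44 and 7.15 in WT myelin, 14.1, 14.2 and 12.8 in KO DMSO and 8.43, 7.04 and 5.83 in KO myelin. The male WT groups overlapped each other, and in the other 3 cultures the myelin libraries were all below the DMSO libraries. How many of all genes were without overlap was not counted for myelin against DMSO. Ordered by mean, male WT DMSO was followed by male WT myelin, female KO DMSO, male KO DMSO and female WT DMSO, and the 3 remaining myelin groups came last. Among neighbours in that order, the libraries of female KO DMSO did not overlap those of male KO DMSO, nor those of female WT DMSO the male KO myelin libraries, while the other neighbours overlapped.

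Cspg4, the gene of the NG2 proteoglycan, which pericytes and some macrophages in injured tissue also make, went another way. It was at 57.97, 57.9 and 54.5 CPM in male WT DMSO, 81.0, 83.4 and 78.8 CPM in male WT myelin, 81.0, 71.4 and 78.0 CPM in male KO DMSO and 114, 112 and 103 CPM in male KO myelin. In females it was at 42.2, 39.9 and 37.1 CPM in WT DMSO, 61.6, 58.4 and 56.7 in WT myelin, 65.5, 77.6 and 74.1 in KO DMSO and 102, 106 and 99.8 in KO myelin. Myelin libraries were above their DMSO libraries, and KO libraries above WT libraries, with no overlap in any of the 8 pairs of groups. The share of all genes without overlap was counted only for the male KO pairs, and is given with them below. Of 8 pericyte and smooth muscle markers, 5 or 6 were at or under 3 counts in every group, among them Rgs5, Kcnj8 and Abcc9, and all 8 summed to 3.21 to 14.3 CPM. Cspg4 stood above the summed CPM of those markers in every library. Which cells its RNA came from was not tested.

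Among all genes that passed the filter, the one closest to Pdgfra over the 24 libraries was Ptprz1, by the root mean square difference of centred log2(CPM + 1), at 0.147. Nell2, Pou3f3, Shisa6, Pcsk6, Spon1, Klhl13 and Ncan came next, at 0.175 to 0.199, where the variation of Pdgfra itself was 0.466. Olig1 ranked 11, Olig2 33, Cacng4 35, Sox10 123 and Vcan 519, and Cspg4 ranked 13986 at 0.731. The libraries share cultures and treatments, and low genes are noisier, so the ranks are descriptions.

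Myelin was compared with DMSO within each sex and genotype with edgeR's quasi-likelihood test, and a gene is called here where its p, adjusted by Benjamini-Hochberg across the 14468 genes tested, was under 0.05. Cspg4 rose and most other precursor genes fell in each of the 4 cultures. In male WT microglia 7 of the 9 tested genes were called, 1 higher and 6 lower, where 39.3% of all genes were called, 20.0% higher and 19.4% lower. In female WT 8 were called, 1 higher and 7 lower, against 40.4% of all genes (19.3% higher, 21.1% lower). In male KO 6 were called, 1 higher and 5 lower, against 38.2% (18.0% higher, 20.2% lower). In female KO all 9 were called, 1 higher and 8 lower, against 41.2% (20.8% higher, 20.4% lower). The median log2 fold change of the 9 genes was -0.36, -0.40, -0.47 and -0.68 in WT males, WT females, KO males and KO females, where that of all genes lay between -0.013 and 0.014.

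The matrix proteoglycan genes moved apart from Cspg4. Vcan, which encodes versican, was at 9.71, 10.8 and 9.80 CPM in male WT DMSO and at 6.82, 5.44 and 4.52 CPM with myelin. It fell by 0.86 ± 0.16 (log2, SE, adjusted p = 9.57e-06) in male WT, and by 0.99 ± 0.17, 1.23 ± 0.19 and 1.09 ± 0.18 in female WT, male KO and female KO. Ncan was at 78.5, 73.9 and 73.8 CPM in male WT DMSO and at 56.5, 54.9 and 49.6 CPM with myelin. It fell by 0.49 ± 0.08 (adjusted p = 2.07e-05), 0.54 ± 0.10, 0.44 ± 0.10 and 0.66 ± 0.09 in the same order. Cspg4 rose by 0.51 ± 0.06 (adjusted p = 4.63e-11), 0.57 ± 0.06, 0.51 ± 0.05 and 0.50 ± 0.05, a 1.41 to 1.49-fold higher level. The DMSO and myelin libraries of these 3 genes did not overlap in any culture. Since the share of all genes without overlap was not counted for myelin, overlap only describes these genes and those that follow.

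Among the receptors, Pdgfra fell by 0.40 ± 0.13 in female WT (adjusted p = 0.0103), 0.47 ± 0.13 in male KO and 0.95 ± 0.13 in female KO. Its value in male WT was -0.28 ± 0.11 (adjusted p = 0.0418), a call that was lost with DESeq2, with only those groups in the fit and without DMSO replicate 2 or 3 or myelin replicate 1 or 3. The female WT call was lost without DMSO replicate 2. Ptprz1 fell by 0.36 ± 0.12, 0.39 ± 0.14, 0.47 ± 0.14 and 0.65 ± 0.14 in WT males, WT females, KO males and KO females. The calls were lost without DMSO replicate 2 or myelin replicate 3 in male WT, without DMSO replicate 2 or 3 or myelin replicate 2 or 3 in female WT and without DMSO replicate 1 in male KO. In female WT its groups overlapped, at 6.85, 7.99 and 8.91 CPM with DMSO and 6.88, 5.31 and 5.89 CPM with myelin. Cacng4 fell by 0.60 ± 0.15, 0.58 ± 0.19, 0.76 ± 0.18 and 0.61 ± 0.17 in the same order, and its groups did not overlap, though without female WT DMSO replicate 1 the female WT call was lost. All 3 receptor genes were thus lower with myelin in the 4 cultures, with the male WT value of Pdgfra the least certain.

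The lineage transcription factors gave a less even picture. Olig2 fell by 0.59 ± 0.14 in male WT (adjusted p = 0.000438), from 13.7, 14.1 and 16.5 CPM to 9.81, 10.2 and 9.53 CPM. It fell by 0.44 ± 0.15 in female WT, a call lost without DMSO replicate 3 or myelin replicate 2, and by 0.80 ± 0.15 in female KO, and was at -0.26 ± 0.17 in male KO (adjusted p = 0.235). Olig1 fell by 0.78 ± 0.15 in female KO (adjusted p = 0.000212) and by 0.39 ± 0.15 in female WT (adjusted p = 0.0448), a call lost without any 1 of the 6 libraries except myelin replicate 2. It was at -0.26 ± 0.14 in male WT and -0.22 ± 0.16 in male KO, neither of them called, though the male WT value was called without a filter on low counts (-0.28, adjusted p = 0.0102) and with only those groups in the fit (-0.27, adjusted p = 0.0037). Sox10, at 1.202 to 5.44 CPM the lowest of the tested genes, was called in female KO only, at -0.68 ± 0.26 (adjusted p = 0.0314). That call was lost without DMSO replicate 1 or 2 or myelin replicate 1 or 3, and with only those groups in the fit (adjusted p = 0.0549). In male KO it was called without DMSO replicate 2 or myelin replicate 1.

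**Figure D3:**
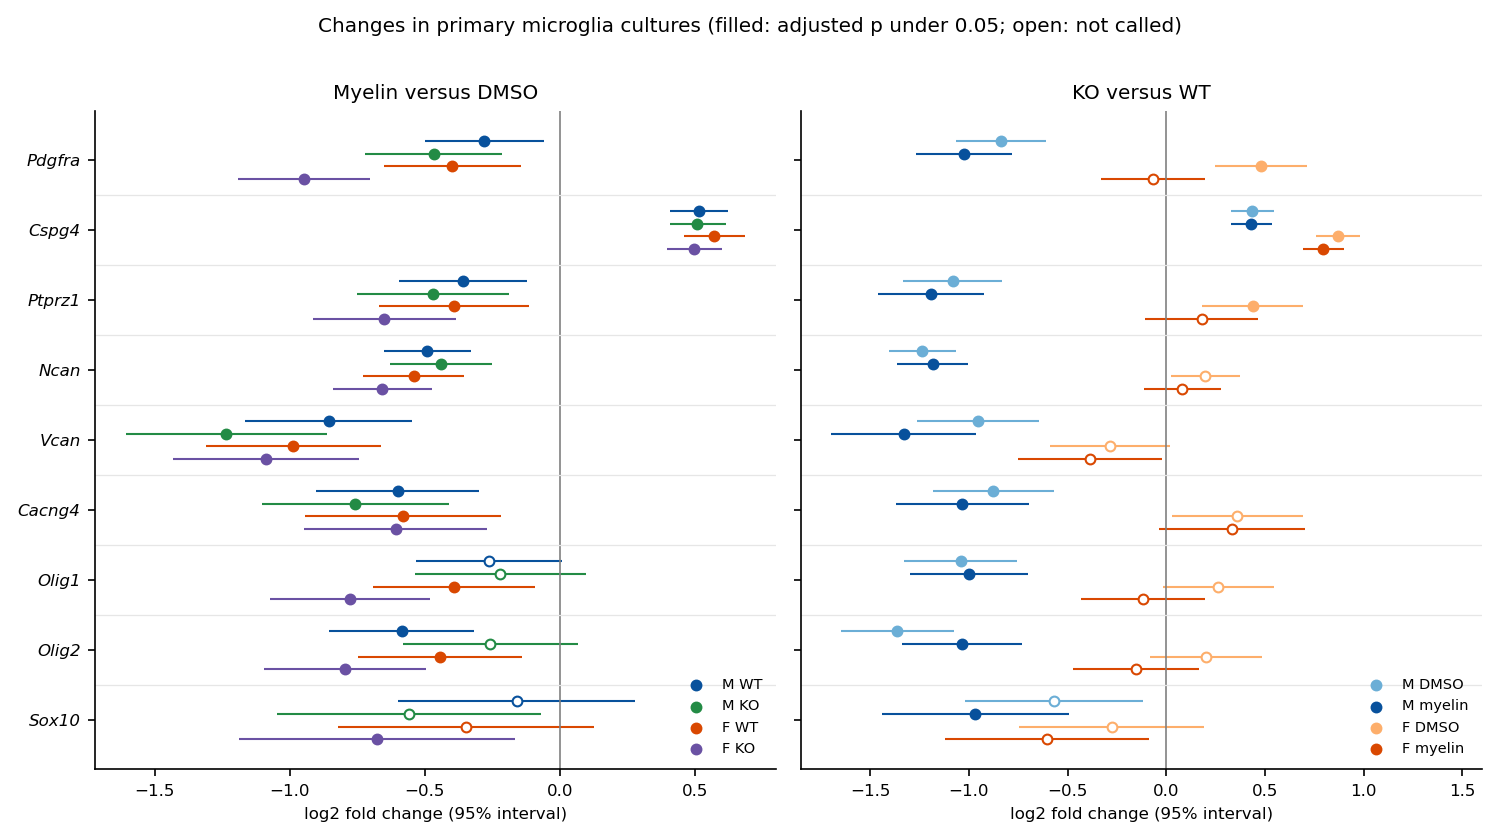
Log2 fold change of the 9 tested precursor transcripts with its 95% interval (horizontal axis), for myelin against DMSO (left) and KO against WT (right), with filled points at an adjusted p under 0.05. Cspg4 lies right of 0 in all 8 comparisons, and the other genes lie left of 0 with myelin and in male KO cultures. In female KO cultures Pdgfra and Ptprz1 are filled points right of 0 with DMSO. Apart from these and Cspg4, the female KO points are open and lie on both sides of 0.

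Whether KO cultures answered myelin differently was tested as the difference of the 2 myelin responses. None of the 9 genes was called in males or females, where 2.56% and 0.919% of all genes were. For Cspg4 the KO minus WT difference was -0.005 (95% interval -0.15 to 0.14) in males and -0.07 (-0.23 to 0.08) in females. The furthest value was that of Pdgfra in females, at -0.55 (-0.90 to -0.20, adjusted p = 0.17), and it was called without female KO myelin replicate 1 (-0.70, adjusted p = 0.0466). For the other 7 genes the values lay between -0.40 (Sox10) and 0.33 (Olig2) in males and between -0.38 (Olig1) and -0.03 (Cacng4) in females, so a difference in response is neither shown nor bounded tightly.

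RNA of other lists was also measured beside these genes. Of 15 further precursor genes, 8 were tested, of which 1 was higher and 5, 2, 4 and 4 were lower with myelin in WT males, WT females, KO males and KO females, where 19.4, 21.1, 20.2 and 20.4% of all genes were lower, so that the count in WT females was near that share. The higher gene was Bcas1, which marks precursors about to myelinate, at 1.90 ± 0.18, 2.02 ± 0.17, 2.37 ± 0.18 and 2.77 ± 0.18. Tnr, which encodes the matrix protein tenascin-R, fell by 1.10 ± 0.16, 1.37 ± 0.19, 1.19 ± 0.19 and 1.41 ± 0.19. Mobp and Mbp, genes of mature oligodendrocytes whose mRNA is carried into myelin, rose, Mobp from a mean of 3.28 to 112 CPM and Mbp from 111 to 385 CPM in male WT. The 16 oligodendrocyte markers summed to 211 to 342 CPM with DMSO and 571 to 1013 CPM with myelin. Of the 13 tested, 2, 3, 2 and 2 were higher and 1, 5, 6 and 4 lower in WT males, WT females, KO males and KO females. Of all genes 20.0, 19.3, 18.0 and 20.8% were higher. The median log2 fold change of the 13 was -0.073, -0.422, -0.618 and -0.351, so most of these markers did not rise with the sum. The 10 fibroblast markers summed to 2084 to 2975 CPM with DMSO and 481 to 768 CPM with myelin, and 2 of the 7 tested were lower in each culture, Postn and Fn1, the gene of fibronectin, which gave most of that sum (a mean of 2876 and 665 CPM in male WT). The microglia markers summed to 4691 to 5006 CPM with DMSO and 3607 to 3976 CPM with myelin, and 7, 7, 5 and 7 of the 10 were lower and 2, 1, 1 and 0 higher in WT males, WT females, KO males and KO females. Their part in the precursor values was not tested. The part of RNA brought in with the myelin in any of these values was not tested.

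Of 25 genes for ligands, partners and regulators of precursor signalling, 21 were tested, and 3, 3, 3 and 4 were higher and 4, 7, 6 and 7 lower with myelin in WT males, WT females, KO males and KO females. In male WT this was 7 of 21, no larger a share than the 39.3% of all genes, and the higher counts were below the 20.0, 19.3, 18.0 and 20.8% of all genes. Jag1, a Notch ligand, rose by 0.76 ± 0.04 in male WT and 0.65 ± 0.04 in female WT. Ptn, which encodes pleiotrophin, the ligand of the PTPRZ1 receptor, fell by 0.36 ± 0.12 in male WT and 0.88 ± 0.13 in female KO. Bcan, which encodes the proteoglycan brevican, fell by 0.45 ± 0.13 and 0.58 ± 0.14 in the same groups. The astrocyte markers gave no common direction, with Aldh1l1 at -2.04, -1.88, -2.003 and -2.33 and S100b at 2.49, 2.50, 1.67 and 2.97 in WT males, WT females, KO males and KO females.

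KO and WT microglia were compared within each sex and treatment. In males 7 of the 9 genes were lower and Cspg4 was higher in KO with DMSO, where 20.9% of all genes were called, 9.32% lower and 11.6% higher. With myelin 8 were lower and Cspg4 higher, where 20.6% were called, 10.6% lower and 10.1% higher. In females the picture was another: with DMSO Cspg4, Pdgfra and Ptprz1 were higher and none lower, against 11.9% of all genes, 5.42% higher and 6.48% lower. With myelin only Cspg4 was called, higher, against 7.28% of all genes, 3.8% higher and 3.48% lower. The median log2 fold change of the 9 genes was -0.95 and -1.03 in males and 0.26 and -0.07 in females with DMSO and myelin, with medians of all genes between -0.01 and 0.01.

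In male DMSO cultures Olig2 showed the largest change, from 13.7, 14.1 and 16.5 CPM in WT to 5.14, 6.41 and 5.63 CPM in KO, a fall of 1.36 ± 0.15 (adjusted p = 1.5e-10). Ncan went from 78.5, 73.9 and 73.8 CPM to 33.4, 32.4 and 30.1 CPM, and fell by 1.24 ± 0.09 (adjusted p = 1.53e-11). Ptprz1 went from 16.2, 17.7 and 17.5 CPM to 9.60, 7.36 and 7.29 CPM, and fell by 1.08 ± 0.13. For all 3 genes each KO library was below each WT library. Olig1, Vcan, Cacng4 and Pdgfra fell by 1.04 ± 0.15, 0.95 ± 0.16, 0.88 ± 0.16 and 0.84 ± 0.12, while Sox10 was at -0.57 ± 0.23 (adjusted p = 0.0696) and was called without KO replicate 1 or with only those groups in the fit. Cspg4 rose by 0.44 ± 0.06 (adjusted p = 1.59e-08).

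With myelin the male KO values were -1.33 ± 0.19 for Vcan, -1.19 ± 0.14 for Ptprz1, -1.18 ± 0.09 for Ncan, -1.04 ± 0.16 for Olig2, -1.03 ± 0.17 for Cacng4, -1.03 ± 0.12 for Pdgfra and -0.999 ± 0.15 for Olig1. Sox10 was at -0.97 ± 0.24 (adjusted p = 0.00218), a call lost without male WT myelin replicate 2. Cspg4 rose by 0.43 ± 0.05. For none of the 9 tested genes did KO and WT libraries overlap in the male cultures, where the same held for 35.2% of all genes with DMSO and 34.5% with myelin, while the few counts of Gpr17 did overlap.

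In female DMSO cultures Pdgfra was at 9.21, 11.2 and 9.07 CPM in WT and 14.1, 14.2 and 12.8 CPM in KO, and rose by 0.48 ± 0.12 (adjusted p = 0.00349). Ptprz1 rose by 0.44 ± 0.13 (adjusted p = 0.0195), a call lost without WT replicate 1 or 2 or KO replicate 1 or 2. Cspg4 rose by 0.87 ± 0.06 in DMSO cultures (adjusted p = 4.05e-17) and, in those given myelin, by 0.80 ± 0.05 (adjusted p = 1.83e-16). The remaining genes were not called in females, with values from -0.285 (Vcan) to 0.36 (Cacng4) with DMSO, where Ncan was called without a filter (0.21, adjusted p = 0.0168) and with only those groups in the fit, and from -0.61 (Sox10) to 0.33 (Cacng4) with myelin. Cspg4 was thus the single gene of the 10 higher in KO in all 4 comparisons.

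Since the sexes differed, the KO effect in females minus that in males was tested, a comparison added after the data had been seen. With DMSO 7 of the 9 genes were called, all with the more positive KO effect in females, where 7.53% of all genes were called, 3.35% in that direction, and Sox10 (0.29 ± 0.33) and Vcan (0.67 ± 0.22, adjusted p = 0.0524) were not. Vcan was called under several alternatives, among them without male KO replicate 1, female WT replicate 3 or female KO replicate 1. The differences were 1.56 ± 0.21 for Olig2, 1.52 ± 0.18 for Ptprz1, 1.43 ± 0.12 for Ncan, 1.32 ± 0.17 for Pdgfra, 1.31 ± 0.21 for Olig1, 1.24 ± 0.23 for Cacng4 and 0.43 ± 0.08 for Cspg4. With myelin 8 of 9 were called, again all positive and from 0.365 ± 0.08 (Cspg4) to 1.37 ± 0.20 (Ptprz1), where 6.51% of all genes were called, 3.51% in that direction. Single libraries ended some of these calls with myelin: Olig1 without male KO replicate 3 or female WT replicate 1, Olig2 without male KO replicate 2 or female KO replicate 1, and Vcan without male WT replicate 1, male KO replicate 2 or female WT replicate 3. The female and male WT cultures themselves differed with DMSO: 7 of 9 genes were lower in female WT, from -0.52 ± 0.06 for Cspg4 to -1.30 ± 0.16 for Cacng4, where 3.7% of all genes were called, 1.75% lower. That comparison, the male KO comparison and the male WT myelin comparison share the male WT DMSO libraries.

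Markers of other cells also moved in the male KO cultures. The shares of all genes called were 9.32% lower and 11.6% higher with DMSO and 10.6% lower and 10.1% higher with myelin. Of the 10 fibroblast markers 7 were tested, and 5 were lower with DMSO and 6 with myelin, among them Col1a2 at -2.83 ± 0.66 and -3.76 ± 0.72, while none was called in females. The 8 choroid plexus markers summed to 129 to 227 CPM in male WT and 4.71 to 23.0 CPM in male KO, and to 85.9 to 219 CPM in female WT and 44.7 to 547 CPM in female KO. All 8 were tested, but only 1 with DMSO, near the share of all genes, and 2 with myelin were called lower in male KO. None was called in females. Of 11 tested astrocyte markers, 4 with DMSO and 3 with myelin were lower in male KO and 1 was higher, the latter near the share of all genes. Of the 10 microglia markers 6 were lower and 2 higher in male KO with DMSO, and 3 and 2 with myelin. Among the 8 further precursor genes tested, 4 and 3 were lower in male KO, among them Sox6, a transcription factor gene of precursors, at -1.06 ± 0.20 with DMSO and -1.38 ± 0.23 with myelin. Ptn fell by 1.21 ± 0.13 in male KO and rose by 0.94 ± 0.13 in female KO with DMSO. Acta2, the 1 pericyte and smooth muscle marker tested, was also lower in male KO, at -0.87 ± 0.29 with DMSO and -1.31 ± 0.30 with myelin. In female KO 7 of 13 oligodendrocyte markers were lower with DMSO, where Pdgfra and Ptprz1 were higher. With myelin 6 of 13 were lower, and neither Pdgfra nor Ptprz1 was called. None of these markers was higher, and 6.48% and 3.48% of all genes were lower with DMSO and myelin. The part of other cells in the KO differences was not tested.

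In hippocampus the agonist experiment asked what TLR7 activation does, and no precursor transcript was called with gardiquimod. In males 0 of 10 genes passed, where 0.221% of 17218 genes did, and in females 0 of 10, where 0.0232% did. The counts were also 0 for the average of both sexes (0.215% of all genes) and for the difference between the sexes (0.00581%). By edgeR 2722 genes had an unadjusted p under 0.05 in males and 1044 in females, and DESeq2, which called 254 and 14 genes, also called none of the 10.

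Pdgfra lay between 48.8 and 64.0 CPM (median 52.4) in saline males and between 53.8 and 60.7 CPM (median 54.8) in gardiquimod males. In females it lay between 46.7 and 60.8 CPM (median 53.3) with saline and between 41.8 and 56.99 CPM (median 50.96) with gardiquimod. The groups overlapped, at 0.02 (95% interval -0.11 to 0.15) in males and -0.12 (-0.25 to 0.01) in females. The bounds of both intervals lie within 0.253 of 0 on the log2 scale.

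Gpr17 and Olig2 had the lowest p-values of the 10 in males. Gpr17 ran from 22.02 to 27.8 CPM (median 25.1) with saline and from 18.2 to 25.1 CPM (median 21.1) with gardiquimod, a difference of -0.24 ± 0.08 (unadjusted p = 0.00614, adjusted p = 0.162). Olig2 ran from 24.6 to 36.9 CPM (median 35.2) and from 24.8 to 32.0 CPM (median 27.8), a difference of -0.23 ± 0.095 (adjusted p = 0.225). In females these 2 genes were at -0.04 ± 0.08 and -0.01 ± 0.09. The groups of both genes overlapped in either sex.

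In females Cacng4 and Ptprz1 stood furthest from 0. Cacng4 ran from 22.7 to 30.0 CPM (median 26.9) with saline and from 19.5 to 27.6 CPM (median 22.3) with gardiquimod, at -0.24 ± 0.07 (unadjusted p = 0.00152, adjusted p = 0.633). Ptprz1 ran from 241 to 323 CPM (median 301) and from 166 to 318 CPM (median 253), at -0.24 ± 0.10 (adjusted p = 0.791). In males these were at 0.03 ± 0.07 and 0.01 ± 0.10. The remaining 6 genes, without Gpr17 and Olig2 given above, lay between -0.23 (Cspg4) and -0.095 (Olig1) in females and between -0.10 (Vcan) and 0.02 (Pdgfra) in males. The median of the 10 genes was -0.04 in males and -0.13 in females, beside -0.006 and 0.005 over all genes.

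**Figure D4:**
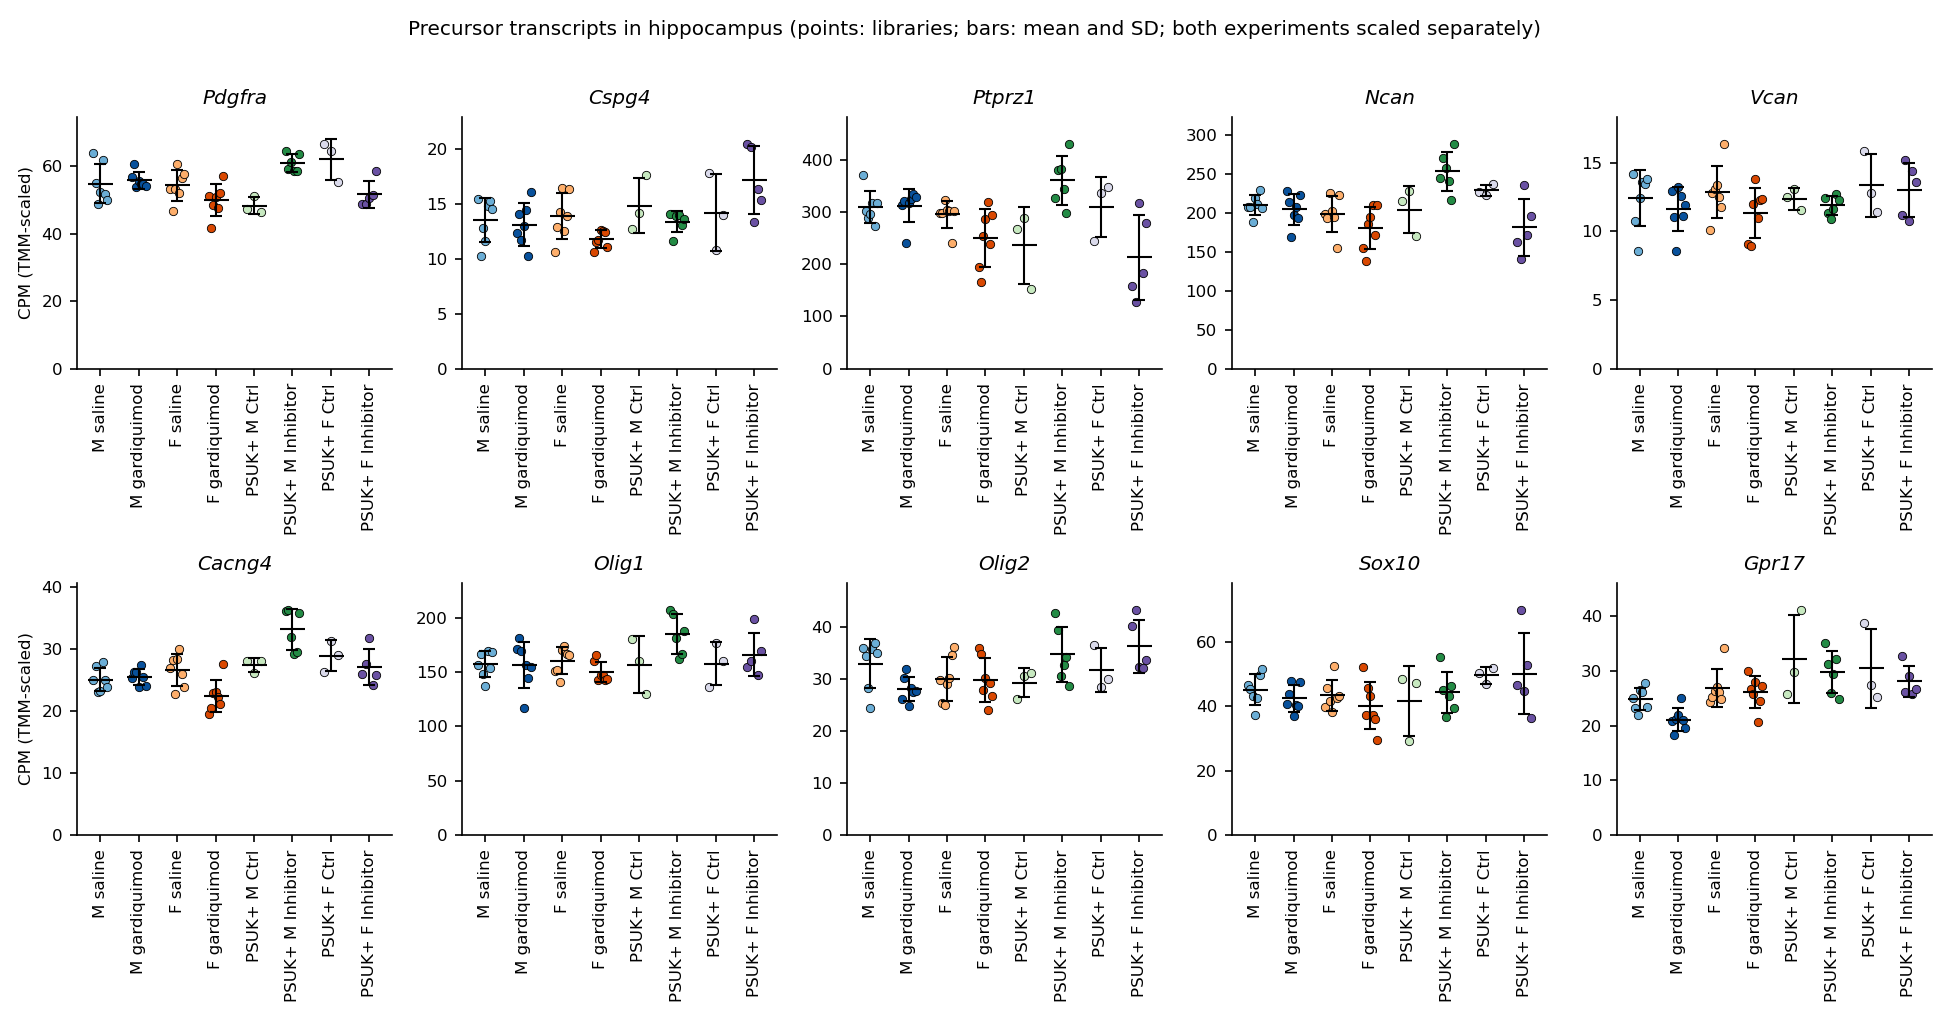
Level of each precursor transcript (vertical axes, CPM with TMM scaling) in hippocampus, with 7 libraries in each agonist group and 3 to 6 in each PSUK+ group, and bars for the mean and SD. Saline and gardiquimod libraries overlap for all 10 genes, while in PSUK+ males Pdgfra, Ptprz1 and Cacng4 of the inhibitor libraries lie above the controls.

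Among the genes closest to Pdgfra over the 28 agonist libraries were Scarb2, Slc9a8, Ildr2, Mboat2, Twsg1, Lmbrd1 and Slc39a1, at root mean square differences of 0.092 to 0.101 where Pdgfra itself varied by 0.128. None of these named genes is a precursor gene of the lists used, and the nearest of the 10 was Cacng4 at rank 394. In the microglia, by comparison, Ptprz1 and Ncan were among the 8 nearest genes.

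The inhibitor experiment asked what blocking TLR7 does in PSUK+ hippocampus. None of the 10 genes was called in males (0.105% of 17128 genes), in females (0.0876%) or in the average of both sexes (0.0117%). By edgeR 3017 and 1982 genes had an unadjusted p under 0.05 in males and females. DESeq2 called 202 and 173 genes, among them Pdgfra in males (adjusted p = 0.0189) and none of the 10 in females. For the difference between the sexes, female minus male, 1 of the 10 was called, Pdgfra, where 2.41% of all genes were called.

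Pdgfra was at 46.3, 47.4 and 51.1 CPM in male controls and at 58.5 to 64.5 CPM (median 60.2) in inhibitor males, and these did not overlap. It was at 55.2, 64.3 and 66.7 CPM in female controls and at 48.8, 48.8, 50.7, 51.6 and 58.5 CPM in inhibitor females, which overlapped through the library at 58.5 CPM. The differences were 0.34 ± 0.09 in males (adjusted p = 0.157) and -0.27 ± 0.09 in females (adjusted p = 0.266), and the female minus male difference was -0.60 ± 0.12 (adjusted p = 0.0237). Female controls lay above male controls, so the opposite directions rest on both pairs of groups. The call was lost without filtering (adjusted p = 0.075), without both male libraries that held Xist (-0.57, adjusted p = 0.0762), without female control replicate 2 (adjusted p = 0.0522) and without male control replicate 3 (adjusted p = 0.0853).

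Ptprz1 and Ncan had values in the same directions that were not called. Ptprz1 was at 152, 267 and 289 CPM in male controls, 298 to 431 CPM (median 362) in inhibitor males, 244, 336 and 348 CPM in female controls and 128 to 317 CPM (median 183) in inhibitor females. Its differences were 0.61 ± 0.25 in males, -0.54 ± 0.25 in females and -1.15 ± 0.36 between the sexes (adjusted p = 0.0756). Ncan was at 171 to 227 CPM in male controls, 216 to 289 in inhibitor males, 223 to 237 in female controls and 141 to 236 in inhibitor females, with a difference between the sexes of -0.65 ± 0.21 (adjusted p = 0.0798). Of the 10 genes, 3 did not overlap between male groups (Pdgfra, Ptprz1 and Cacng4), where 10.7% of all genes did not, and none between female groups, where 6.19% of all genes did not.

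**Figure D5:**
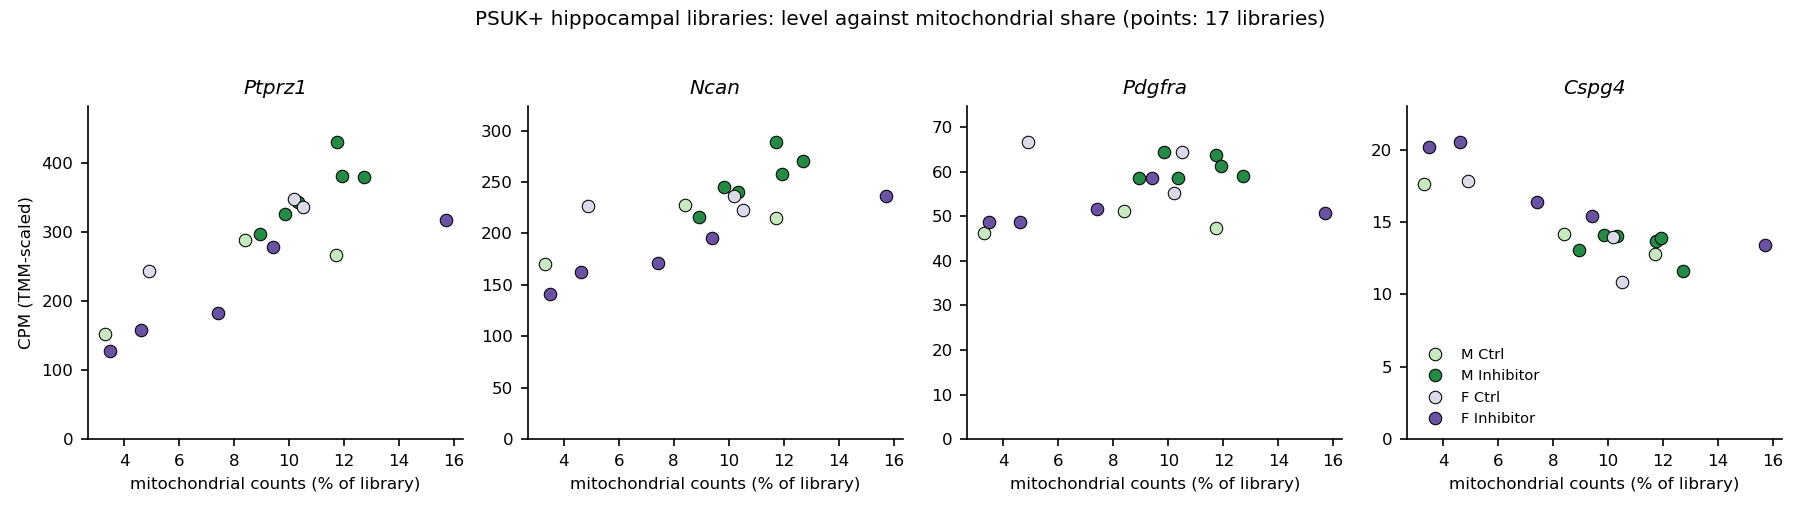
Level of Ptprz1, Ncan, Pdgfra and Cspg4 (vertical axes, CPM with TMM scaling) against the share of mitochondrially encoded counts (horizontal axes, percent) in the 17 PSUK+ hippocampal libraries, by group. The libraries under 5% hold the lowest Ptprz1 among the males and 2 lowest among the females, and Cspg4 from 17.7 to 20.5 CPM.

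Several library measures moved with these genes. The 4 libraries under 5% mitochondrial counts were male control replicate 3, inhibitor female replicates 1 and 2 and female control replicate 1. Their Ptprz1 was 152, 159, 128 and 244 CPM, against 183 to 431 CPM in the other 13, and their 12 astrocyte markers summed to 3622 to 8292 CPM, against 7524 to 15578 CPM. Cspg4 went the other way, with 17.7 to 20.5 CPM in these 4 and 10.9 to 16.4 CPM in the rest. With the mitochondrial share in the fit, an alternative added after the data had been seen, Ptprz1 (-0.55 ± 0.11, adjusted p = 0.00389), Ncan (-0.34 ± 0.08, adjusted p = 0.017) and Pdgfra (-0.27 ± 0.08, adjusted p = 0.0486) were called lower in inhibitor females. The same 3 genes were then called for the difference between the sexes, at -0.87 ± 0.16, -0.50 ± 0.12 and -0.59 ± 0.12, and none was called in males.

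The choroid plexus markers also differed between the groups. They summed to 3409 to 3593 CPM in male controls and 3699 to 4736 CPM in inhibitor females, but to 42.5, 49.3 and 1598 CPM in female controls and 88.2 to 4724 CPM in inhibitor males. In inhibitor males the 3 libraries with the most of these markers (3068 to 4724 CPM) had Pdgfra at 58.5, 58.6 and 61.3 CPM and the 3 with the least (88.2 to 1405 CPM) had 59.04, 63.7 and 64.5 CPM. The part of these markers in the Pdgfra difference was not tested. Age, entered as a covariate, left the Pdgfra difference at -0.60 ± 0.13 (adjusted p = 0.0295).

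The remaining genes showed no called change in PSUK+ hippocampus. Cacng4 was at 26.1, 28.1 and 28.1 CPM in male controls and 29.3 to 36.4 CPM (median 34.0) in inhibitor males, a difference of 0.27 ± 0.11 (adjusted p = 0.229), and at -0.10 ± 0.11 in females. Gpr17 was at -0.11 ± 0.16 in males and -0.12 ± 0.16 in females, and Sox10 at 0.09 ± 0.18 and 0.01 ± 0.19, with SDs of 10.8 CPM around 41.7 in male controls and 12.6 CPM around 50.1 in inhibitor females. Olig1 and Olig2 were at 0.24 ± 0.13 and 0.25 ± 0.14 in males and 0.07 ± 0.13 and 0.20 ± 0.14 in females, and Vcan was at -0.06 ± 0.13 and -0.04 ± 0.13. The 95% intervals of Gpr17, from -0.42 to 0.19 and from -0.43 to 0.20, show how wide a change these groups leave possible.

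Of the 25 signalling genes, 3 were called for the difference between the sexes, where 2.41% of all genes were, all with the lower response in females: Notch1, the Notch receptor, at -1.36 ± 0.24, Tnc, the matrix protein tenascin-C, at -1.13 ± 0.24 and Fgf2, a growth factor for precursors, at -1.06 ± 0.28. Of the 15 further precursor genes 1 was called, Megf11, at 1.17 ± 0.22, against the same 2.41%. None of either list was called within a sex or in the average.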

How the data were processed

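RNA of 69 mouse libraries was read as 3′ tags with QuantSeq 3′ FWD, per the labels' protocols, and the authors deposited raw counts per gene in 3 tables, which were used as deposited. The submitters' processing notes name GRCm38, mm10 and DESeq2 1.38.3; the aligner, counter and annotation were not given in the sources used here. The 10 genes and the 12 gene lists (138 genes) were chosen with earlier results of these data known.

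Each experiment was fitted on its own with edgeR 4.0.16 (R 4.3.3) on all of its groups, after filterByExpr and TMM scaling, by the robust quasi-likelihood test with 1 mean per group and Benjamini-Hochberg adjustment over 17218, 14468 and 17128 genes for the agonist, microglia and inhibitor experiments. A gene was called at an adjusted p under 0.05, and the SE is the log2 fold change divided by the root of the F statistic. Levels are CPM over the TMM-scaled library total, and 95% intervals are normal approximations from the SE. All 10 genes were described, and for every other list up to 3 called genes with the largest change and at least 1 CPM, plus the 8 genes nearest to Pdgfra by centred log2(CPM + 1), could be named. Median depth was 16.6, 16.2 and 15.7 M counts. No 2 replicates held identical counts, and all differed by more than counting noise. On simulated counts the test recovered 99% of log2 changes of 1 and 79% of changes of 0.5 for gardiquimod in males, 98% and 82% for myelin in male WT, and 79% and 22% for the inhibitor in males.

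Alternatives were DESeq2 1.42.0, its size factors in edgeR, no filter, only the groups compared, each library left out, a replicate block (microglia) and age (inhibitor). Added after the data had been seen were the mitochondrial share as a covariate (both hippocampal experiments), leaving out both male inhibitor libraries with Xist, and 3 comparisons (the female minus male KO effect with DMSO and with myelin, and female against male WT with DMSO). Of the 12 same-numbered pairs of microglia libraries, 3 deviated together with a correlation over 0.1, so the numbers were not taken as pairing. One gene that the rule for genes near Pdgfra named in the agonist libraries is not reported here.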

Additional observations from a re-analysis of the deposited data

Results flagged for a closer look

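Over 60 groups of gene and condition with 5 to 7 libraries, 4 held a library far from the rest by Dixon's test, where chance gives about 5% of groups. Pdgfra was at 58.5 CPM in inhibitor female replicate 5 and at 48.8 to 51.6 CPM in the other 4. Ptprz1 was at 241 CPM in gardiquimod male replicate 3, with the others at 314 to 334 CPM, and at 241 CPM in saline female replicate 6, with the others at 297 to 323 CPM. Gpr17 was at 34.3 CPM in saline female replicate 7, with the others at 24.3 to 27.04 CPM.

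The response of Pdgfra to the inhibitor differed between the sexes, at -0.60 for female minus male. The KO effect, female minus male, differed with DMSO for Cacng4 (1.24), Cspg4 (0.43), Ncan (1.43), Olig1 (1.31), Olig2 (1.56), Pdgfra (1.32) and Ptprz1 (1.52). With myelin it differed for Cacng4 (1.37), Cspg4 (0.365), Ncan (1.27), Olig1 (0.88), Olig2 (0.88), Pdgfra (0.96), Ptprz1 (1.37) and Vcan (0.94). Each is a test of the difference itself with edgeR.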

How the results depend on the processing

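No alternative turned the direction of a called change. The number of the 9 genes called for myelin in female WT (8) was 5 to 7 when single libraries were left out, with 5 without DMSO replicate 2 or 3. For the myelin response in females, KO minus WT, it was 0 to 1. For the inhibitor, DESeq2 called 1 gene in males, and the mitochondrial share as a covariate gave 3 in females. For the female minus male response (1 gene), DESeq2 and the mitochondrial share each gave 3, no filter and leaving out both male libraries with Xist each gave 0, and single libraries left out gave 0 to 3, with 0 without female control replicate 2 or male control replicate 3, 2 without female control replicate 1 and 3 without inhibitor female replicate 3. With gardiquimod 0 genes were called under each alternative run. With the replicate block 7 genes were called for myelin in male WT and 8 in female WT, as without it, and it changed 2 calls, adding Ncan for KO in females with DMSO and Vcan for the female minus male KO effect with DMSO. The block gives same-numbered libraries of all groups 1 shared effect, so it cannot test pairing of DMSO and myelin within a culture. No paired analysis was possible because of numbers given by accession order in hippocampus. With 3 libraries a group and levels of 1.202 to 5.44 CPM, depth limits Sox10 most among the genes tested in microglia.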
